A study of Papio anubis with 25 samples.

Results

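The genes of 10 plasma carrier and transport proteins were followed through liver, pancreas and 3 salivary glands of the olive baboon: ALB, TF, TTR, HPX, AMBP, AHSG, RBP4, CP, SERPINA1 and A1BG. They were taken by gene symbol from a table of 21287 genes, and each of the 10 symbols matched 1 row. The set was listed as liver-made plasma proteins, with earlier results of these data known. The study sampled parotid gland, submandibular gland, sublingual gland, pancreas and liver of 5 baboons, which gave 5 libraries per tissue and 25 libraries in all. The animals numbered 1 to 4 were female and number 5 was male, the labels name no treatment, every gland was the left one and every piece was flash frozen. RNA came from 3 sections of 30 µm per piece, so each value describes a thin slice of a tissue. The series was built to compare amylase expression between salivary glands and pancreas, with liver as a further digestive tissue, and the plasma proteins were not its subject.

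Plasma proteins are made mainly by hepatocytes, which secrete them into the blood, where they carry ions, hormones, vitamins and fatty acids or bind substances that would do harm if free. Albumin binds fatty acids, bilirubin and drugs, transferrin carries iron, hemopexin binds heme, and ceruloplasmin holds copper and oxidises iron. Transthyretin carries thyroid hormone and also holds retinol-binding protein in the blood, and is known to be made outside liver in pancreatic islets and the choroid plexus. Transferrin is also made by some glands and by Schwann cells and oligodendrocytes, retinol-binding protein by fat tissue, and alpha-1 antitrypsin, a protease inhibitor, by monocytes, neutrophils and some epithelia.

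The values were TPM, a transcript abundance corrected for transcript length and summing to a fixed total in each library. TPM keeps no read number, so the depth is unknown and precision rests on the 5 animals. Of 10 listed hepatocyte genes other than the members 9 were in the table, and their sum was 36226 to 52197 TPM in liver, 271 to 569.9 TPM in pancreas, and 108 to 603 TPM in the glands, with no gene of the list at 0 in all 5 libraries of a tissue. Pancreatic acinar genes summed to 56563 to 114738 TPM in pancreas and to at most 1678 TPM elsewhere. AQP5, the water channel of salivary acini, was 107, 2.25, 48.3, 53.9 and 3.64 TPM in parotid, 88.3, 5.40, 70.8, 54.7 and 61.8 TPM in submandibular and 40.5, 2.61, 68.9, 3.78 and 226 TPM in sublingual gland of baboons 1 to 5, and at most 4.52 TPM in liver and pancreas. Of the parotids, those of baboons 1, 3 and 4 were thus well above liver and pancreas and those of baboons 2 and 5 were not. The sum of the 6 salivary epithelial genes, most of it from PIP and ZG16B, was 848 to 3156 TPM in parotid and 337 to 2659 TPM in liver and pancreas, and 0 of 6 were called between parotid and either tissue. Some gland libraries stood apart by genes of other cell types. Adipocyte genes were high in the parotid of baboon 2 and the submandibular glands of baboons 2 and 5. Lymphoid genes were high in the parotid of baboon 5, and skeletal muscle genes in the sublingual of baboon 2. In the sublingual of baboons 1 and 4 stratified mucosa genes were high, with S100A8, a gene of both neutrophils and squamous epithelium. In such pieces fewer cells of a type and less RNA per cell cannot be told apart.

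In liver the 10 genes together made up 7.64%, 7.87%, 8.82%, 7.14% and 3.54% of all transcripts in baboons 1 to 5. The livers of the first 4 animals lay close together and that of baboon 5 was low. The same sum was 0.0919% ± 0.02 (SD, n = 5) in pancreas, 0.0829% ± 0.0351 in sublingual, 0.0545% ± 0.0325 in parotid and 0.0413% ± 0.0206 in submandibular gland. Albumin mRNA alone was 42.6% ± 2.56 (SD, n = 5) of the members' sum in liver.

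ALB was the most abundant member in liver, at 34684, 31060.2, 38464, 31506 and 14279 TPM in baboons 1 to 5. RBP4, which carries retinol, followed at 11608, 16111, 16923, 13760.0 and 5285 TPM. TTR stood at 10440.3, 8543, 9716, 9574 and 7267 TPM, and was the member whose liver level differed least between animals. SERPINA1 had a mean of 6432 ± 1709 TPM (SD, n = 5) and AMBP, the precursor of alpha-1 microglobulin and bikunin, one of 4793 ± 1868 TPM. TF, HPX and AHSG, which encodes the mineral-binding fetuin A, lay at means of 2169 ± 838, 1996 ± 823 and 1886 ± 789 TPM. A1BG, a plasma glycoprotein of uncertain function, had a mean of 697 ± 221 TPM and CP, ceruloplasmin, was the lowest at 219.9 ± 88.5 TPM. For each of the 10 genes the lowest liver library was above the highest library of any other tissue.

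**Figure D1:**
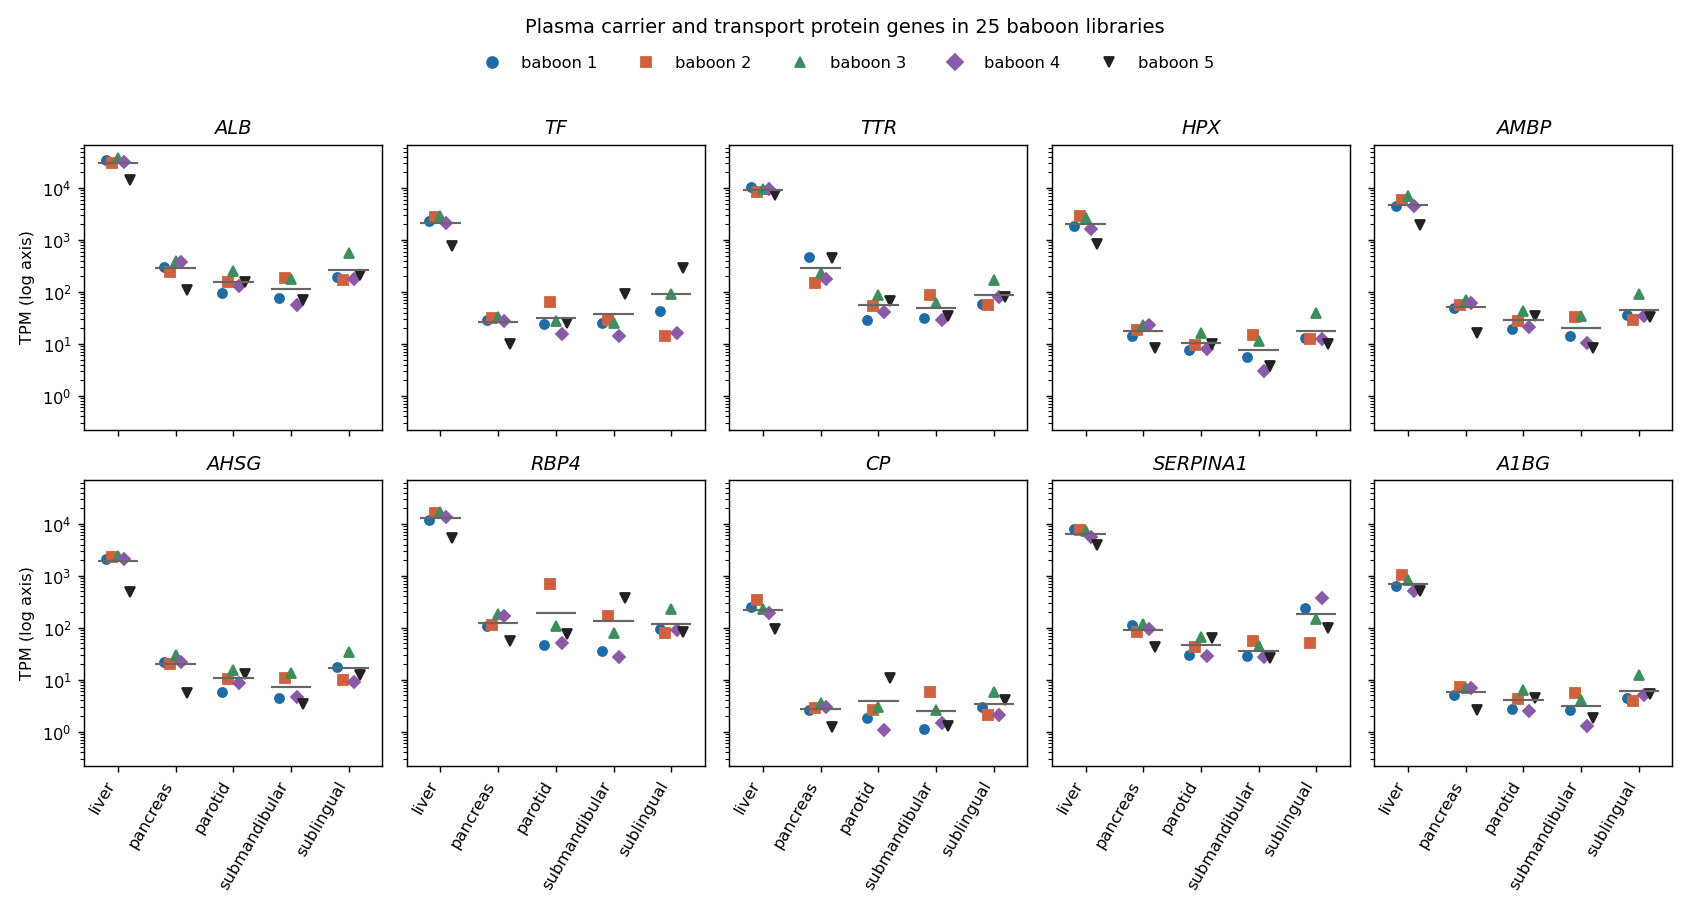
TPM of each of the 10 genes (log axis) in the 5 tissues, with 1 point per library and 1 symbol per baboon. Liver lies above all other tissues for every gene, and the other 4 tissues overlap; the sublingual TF of baboon 5 (294 TPM) and the parotid RBP4 of baboon 2 (695 TPM) stand above their groups.

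All 10 members were lower in each of the other 4 tissues than in liver. The model, fitted with limma to 14991 genes, had a term for tissue and one for animal. Calling a gene required 1 log2 unit or more of log2(TPM + 1) between tissues together with an adjusted p (Benjamini-Hochberg) below 0.05. In parotid against liver 10 of 10 members were called lower, where 10.9% of all genes were. In submandibular gland against liver 10 of 10 were called lower, against 13.9% of all genes. In sublingual gland the count was 10 of 10 against 9.52%, and in pancreas 10 of 10 against 14.6%. The genes were listed as liver-made proteins, so this direction is the one their choice implies.

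The size of the difference varied among the members. In submandibular gland it ran from -8.14 to -5.98 on the log2 scale and in parotid from -7.55 to -5.69. Their median log2 difference from liver was -7.17 in parotid, -7.55 in submandibular, -6.73 in sublingual and -6.53 in pancreas, where the medians of all genes were 0.01, -0.27, 0.17 and -0.44. These 4 comparisons share the liver libraries. On the log2(TPM + 1) scale ALB had the lowest difference from liver of the 10 members in every tissue, at -7.55 (SE 0.41, limma adjusted p = 6.61e-13) in parotid, -8.14 (SE 0.41, adjusted p = 1.78e-13) in submandibular, -6.92 (SE 0.41, adjusted p = 3.28e-12) in sublingual and -6.76 (SE 0.41, adjusted p = 5.1e-12) in pancreas. The members nearest to their liver level were CP in parotid, at -5.69 (SE 0.45), TF in submandibular, at -5.98 (SE 0.66), TF in sublingual, at -5.30 (SE 0.66), and TTR in pancreas, at -5.10 (SE 0.44). The added 1 TPM makes the differences of low members smaller, so this order depends on it. As percentages of the own liver, without an added value, A1BG averaged 0.848% in pancreas against 0.931% for ALB, and HPX 0.373% in submandibular and 0.895% in sublingual gland against 0.391% and 0.922% for ALB.

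Outside liver most members lay near one another as percentages of their own liver level. Each member's TPM was expressed as a percentage of its TPM in the same animal's liver. ALB had 0.873%, 0.777%, 1.03%, 1.22% and 0.761% of its own liver level in the pancreas of baboons 1 to 5. It had 0.279%, 0.502%, 0.661%, 0.421% and 1.07% in parotid, 0.22%, 0.61%, 0.457%, 0.177% and 0.489% in submandibular, and 0.56%, 0.546%, 1.49%, 0.561% and 1.45% in sublingual gland. No library had ALB above 1.49% of its own liver. Of the 180 combinations of the other 9 members with the 20 libraries that were not liver, 152 lay within a factor of 2 of the ALB percentage of the same library. These combinations share libraries. No such count was made for genes that are not members, so this nearness is not shown to be particular to them. The 27 other plasma protein genes in the table had median percentages from 0.262% in the submandibular of baboon 4 to 1.79% in the sublingual of baboon 5. Hepatocyte genes were detected in these same libraries at the sums given above, and their part in the members' levels was not tested.

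**Figure D2:**
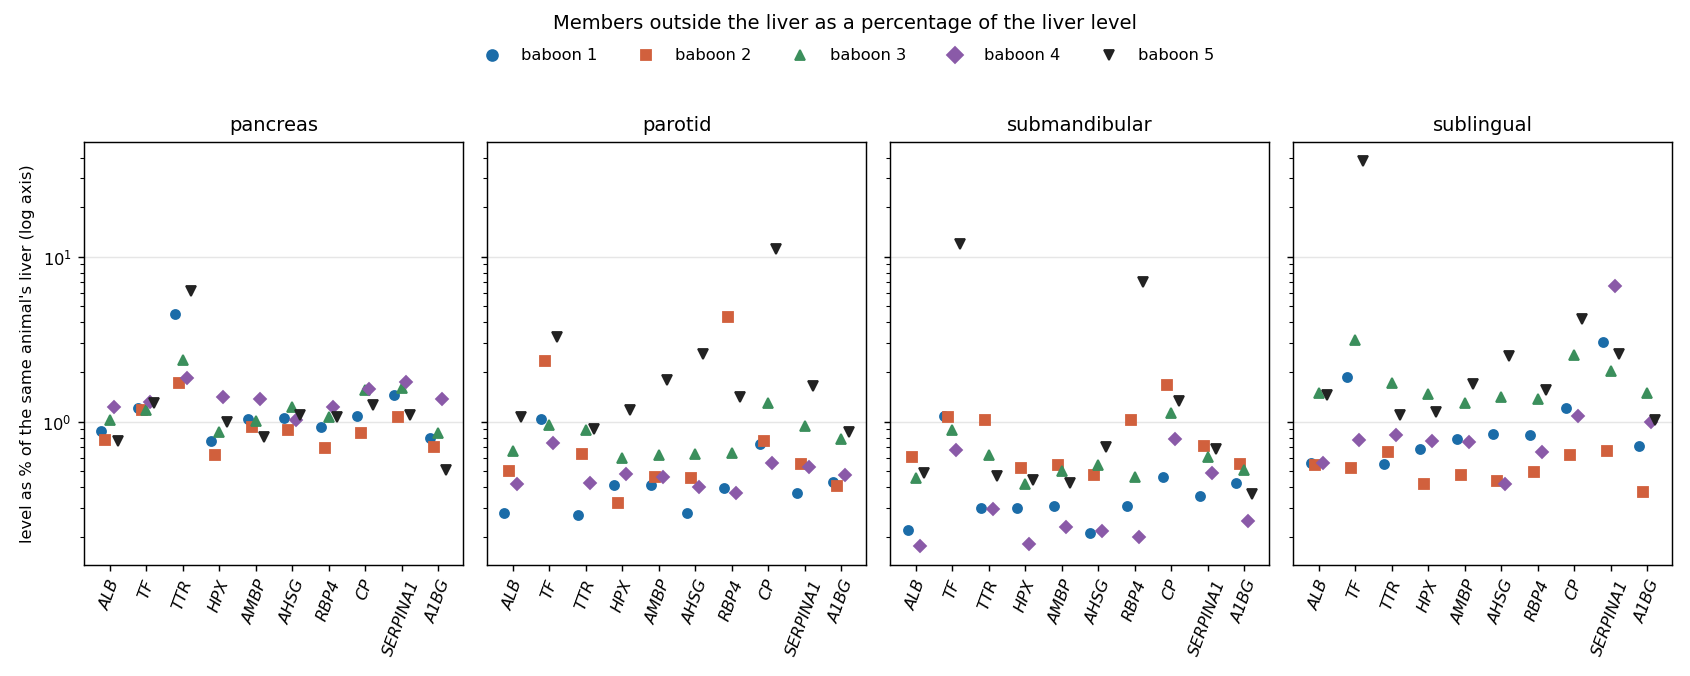
Each member's TPM as a percentage of its TPM in the same animal's liver (log axis), per tissue, with 1 symbol per baboon. Most points lie near the percentage of ALB; TTR in pancreas reaches 6.18%, RBP4 in submandibular 7.08%, CP in parotid 11.2%, and TF in sublingual gland 38.1%.

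HPX, AMBP, AHSG and A1BG followed ALB most closely. HPX, the heme carrier, ranged from 2.99 to 39.4 TPM over the 20 libraries outside liver, and AMBP from 8.33 to 89.4 TPM. AHSG ranged from 3.44 to 33.8 TPM, and A1BG from 1.27 to 12.1 TPM. For each of these 4 genes and for ALB the highest of the 20 libraries was the sublingual of baboon 3. ALB in sublingual gland was 194, 169.6, 573, 177 and 208 TPM in baboons 1 to 5, so that 1 library held the group apart. Hepatocyte genes were also highest there among the libraries outside liver, with a sum of 603 TPM against 209.7 to 430 TPM in the other 4 sublingual glands. Genes of pancreas were high in this library too. Islet genes summed to 523 TPM against 18.4 to 53.2 TPM in the other 4, and pancreatic acinar genes to 1363 TPM against 313 to 654 TPM.

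Over the 20 libraries outside liver, the genes with the most similar pattern were listed for each member. Likeness was taken as Pearson's r of log2(TPM + 1) over 6160 genes that averaged 10 TPM or more in some tissue, liver included, so genes high in liver alone were among those compared. It describes libraries that share animals, tissues and library composition. Among the genes most like ALB were HRG, a histidine-rich plasma glycoprotein (r = 0.992), and APOH (0.989). Among those most like HPX were KNG1, kininogen (0.974), and APOC2 (0.97). AMBP was most like HRG (0.978), AHSG (0.973) and ALB (0.972), and AMBP (0.973) and HRG (0.962) were among the genes most like AHSG. A1BG was most like HRG (0.967), KNG1 (0.965) and APOH (0.963).

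TTR was the member that set pancreas apart from the glands. Its TPM was 472, 146, 232, 176 and 449 in the pancreas of baboons 1 to 5. In parotid it was 28.2, 54.8, 86.3, 40.8 and 65.7 TPM, and in submandibular gland 31.4, 87.6, 61.2, 28.3 and 34.3 TPM. Every pancreas was above every parotid and submandibular gland. The sublingual glands, at 58.2, 55.7, 167, 79.2 and 79.9 TPM, overlapped pancreas through baboon 3 alone. In that sublingual library INS, the insulin gene, was 501 TPM, and its part in the overlap was not tested.

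Against pancreas, TTR was lower in parotid by limma (log2 difference -2.33, SE 0.44, adjusted p = 0.00159), in submandibular gland (-2.55, SE 0.44, adjusted p = 0.000553) and in sublingual gland (-1.69, SE 0.44, adjusted p = 0.0202). It was lower in 5 of 5 animals in each. TTR was the 1 member of 10 called in each of these comparisons, in which 3.82%, 4.08% and 9.47% of all genes were called in either direction. The parotid call was lost without baboon 1 (adjusted p = 0.0524 by limma), and the sublingual call without baboon 1, 4 or 5 (adjusted p = 0.174, 0.0642 and 0.0824). The sublingual call was also lost when only the 2 tissues compared were fitted (adjusted p = 0.0548).

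Pancreatic TTR stood at 4.52%, 1.71%, 2.38%, 1.84% and 6.18% of the animal's own liver level. Those of baboons 1 and 5 were the highest. INS was 5248, 562, 4704, 732 and 13411 TPM in the same 5 pancreas libraries, and IAPP, islet amyloid polypeptide, was 389.9, 12.4, 159.7, 13.2 and 284 TPM. GCG, the glucagon gene, was 280, 0.752, 6.17, 0.959 and 74.3 TPM. Baboons 2 and 4 had the lowest TTR and the lowest level of each of the 3 hormones, and the 6 islet genes together summed to 575 and 747 TPM there, against 4873 to 13811 TPM in the other 3. The part of islet cells in the TTR level was not tested. Outside liver the genes most like TTR were MASP2, a protease of the lectin complement pathway (r = 0.936 over 20 libraries), INS (0.933) and IAPP (0.923).

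**Figure D3:**
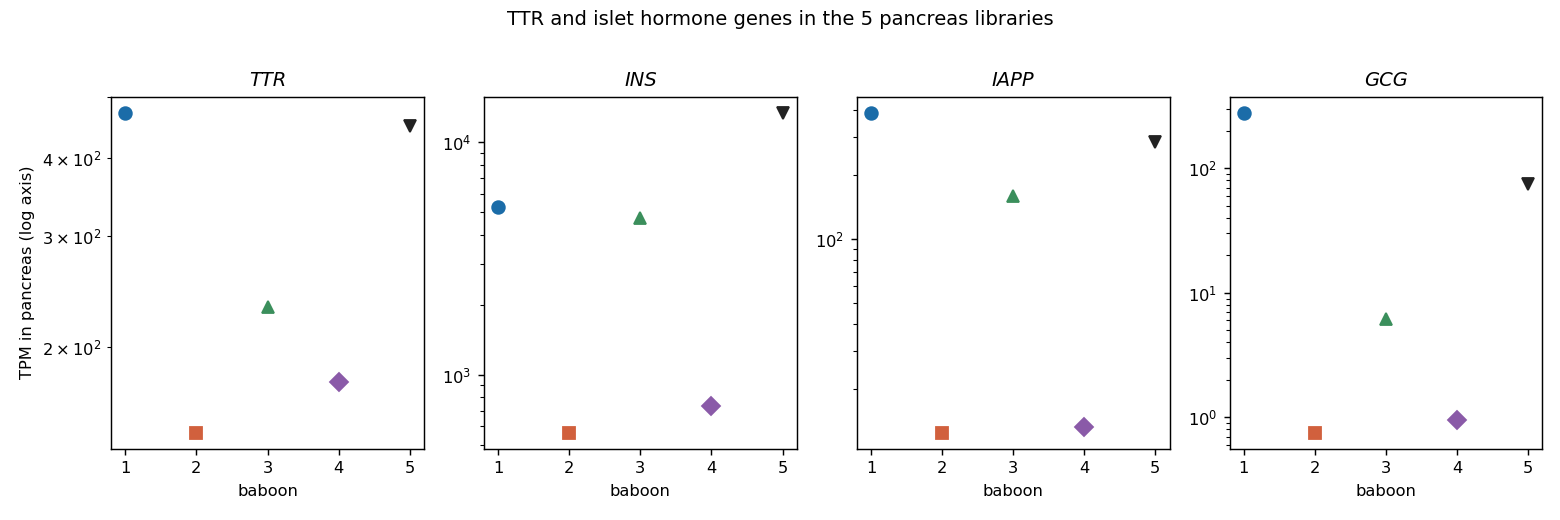
TPM (log axes) of TTR and of the islet hormone genes INS, IAPP and GCG in the 5 pancreas libraries, 1 point per baboon. TTR is highest in baboons 1 and 5 (472 and 449 TPM), and all 4 genes are lowest in baboons 2 and 4.

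TF, the iron carrier, varied widely between gland libraries. In sublingual gland it was 43.9, 14.3, 90.1, 16.4 and 294 TPM in baboons 1 to 5, and in submandibular gland 25.4, 29.3, 25.6, 14.3 and 91.9 TPM. Parotid had 24.6, 63.9, 27.6, 15.7 and 25.2 TPM, and pancreas 28.6, 32.1, 33.5, 27.8 and 9.92 TPM. The sublingual library of baboon 5 was above all 19 others outside liver, and its submandibular library above 18 of them. All 4 tissues overlapped, and TF was called in none of the comparisons among them. The SE of its limma differences was 0.66, the largest of the members.

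The sublingual TF of baboon 5 was 38.1% of that animal's own liver level and its submandibular TF 11.9%, while ALB was 1.45% and 0.489% in the same libraries. Liver TF was low in this animal, at 772 TPM against 2108 to 2877 TPM in the other 4 livers, so the percentage rests on a low liver level as well. The sublingual library of baboon 5 also had the highest salivary epithelial sum, 278925 TPM, of which ZG16B, a secreted lectin of salivary acini, was 217252 TPM. The next highest was the sublingual of baboon 3, with a salivary sum of 32091 TPM and the next highest sublingual TF. In the submandibular of baboon 5 and the parotid of baboon 2, the highest TF libraries of their glands, adipocyte genes summed to 7462 and 21796 TPM and Schwann cell genes to 618 and 834 TPM, against at most 205 and 68.6 TPM of Schwann cell genes in the other libraries of each gland. In sublingual gland the order differed: Schwann cell genes were highest in baboon 1, at 502 TPM, where TF was 43.9 TPM. They summed to 139 TPM in the sublingual of baboon 5. The part of any of these cells in TF was not tested. The genes most like TF were ENPP3, a cell-surface nucleotide phosphodiesterase (r = 0.807), TMEM9 (0.807) and LRPAP1, a chaperone of lipoprotein receptors (0.804). ENPP3 had 174 TPM in the sublingual of baboon 5 and 82.7 TPM in that of baboon 3, and at most 8.10 TPM in the other 18 libraries.

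RBP4 was high in the libraries with the most adipocyte RNA. In parotid it was 45.98, 695, 109.7, 51.2 and 74.9 TPM in baboons 1 to 5, and in submandibular gland 35.7, 167, 78.6, 27.4 and 374 TPM. Sublingual gland had 96.5, 79.5, 234, 90.6 and 82.5 TPM, and pancreas 107, 111, 182, 169.6 and 56.3 TPM. The parotid of baboon 2 and the submandibular gland of baboon 5 were the highest of the 20 libraries outside liver. Adipocyte genes summed to 21796 and 7462 TPM in these libraries, and ADIPOQ, adiponectin, was 591 and 397 TPM. The next highest adipocyte sum was 2873 TPM, in the submandibular of baboon 2, and the remaining 17 libraries outside liver had 14.5 to 414 TPM. The part of fat tissue in RBP4 was not tested.

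RBP4 reached 4.31% of the own liver level in the parotid of baboon 2 and 7.08% in the submandibular of baboon 5, where ALB had 0.502% and 0.489%. The percentage of baboon 5 rests on a low liver level as well, at 5285 TPM against 11608 to 16923 TPM in the other livers. In the other 18 libraries RBP4 lay between 0.199% and 1.56% of the own liver level. RBP4 was not called in any comparison among the 4 tissues. With 5 gland libraries left out for their adipocyte, lymphoid or muscle genes, limma called RBP4 lower in parotid and submandibular gland than in pancreas. The log2 differences were -1.08 (adjusted p = 0.0406) and -1.65 (adjusted p = 0.00207), each with an SE of 0.31. Those left out held the highest RBP4 of each gland, 695 TPM in parotid and 374 and 167 TPM in submandibular gland. Removing them lowers the gland means by construction, so these calls do not show that the glands had less RBP4 than pancreas. In this setting 1188 and 1504 of 14328 genes were called in the same comparisons. The genes most like RBP4 were PCK1, phosphoenolpyruvate carboxykinase of liver and fat (r = 0.934), TM6SF2 (0.915) and PCK2, the mitochondrial form of the carboxykinase (0.90). PCK1 was 24.96 TPM in the parotid of baboon 2 and 24.7 TPM in the submandibular of baboon 5, and at most 13.6 TPM in the other 18.

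SERPINA1 was highest outside liver in 2 sublingual glands. The sublingual values were 241, 51.4, 146, 367 and 100.3 TPM in baboons 1 to 5, against 114.9, 83.0, 115.6, 95.4 and 42.6 TPM in pancreas. Parotid had 29.2, 43.0, 67.5, 29.0 and 63.6 TPM, and submandibular gland 28.0, 55.3, 44.1, 26.7 and 26.6 TPM. Parotid and submandibular gland overlapped sublingual gland only through the sublingual of baboon 2. In that library skeletal muscle genes summed to 58276 TPM.

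The sublingual glands of baboons 1 and 4, at 3.06% and 6.69% of the own liver level of SERPINA1, had ALB at 0.56% and 0.561%. Stratified mucosa keratins summed to 76133 and 18202 TPM there, against 160 to 344 TPM in the other 3 sublingual glands. The macrophage and neutrophil genes summed to 49157 and 66130.4 TPM, with S100A8, a neutrophil and squamous epithelial gene, at 17573 and 21923 TPM. The macrophage genes of this list were low, with CD68 at 21.6 and 14.4 TPM, CSF1R at 5.17 and 0.805 TPM and CD163 at 2.31 and 0.323 TPM. The part of these cells in SERPINA1 was not tested. The genes most like SERPINA1 were F12, coagulation factor XII (r = 0.885), FMO5, a flavin monooxygenase (0.876), and C7H15orf48 (0.841), which was 1619.9 and 2886 TPM in these 2 libraries and at most 62.2 TPM in the other 18.

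CP was the least abundant member and had a single high library. In parotid it was 1.79, 2.60, 3.01, 1.06 and 10.7 TPM in baboons 1 to 5. Its range was 1.13 to 5.67 TPM in submandibular, 2.05 to 5.91 TPM in sublingual and 1.22 to 3.60 TPM in pancreas. The parotid of baboon 5, at 11.2% of its own liver level, was above all others, and lymphoid genes summed to 912 TPM there against 1.86 to 32.4 TPM in the other 4 parotids. Liver CP was low in baboon 5, at 96.1 TPM against 187.8 to 339.1 TPM in the other livers, so the percentage rests on that as well. The part of lymphoid cells in CP was not tested. The genes most like CP were C3, complement component 3 (r = 0.906), F5, coagulation factor V (0.878), and SLC10A1, a bile acid uptake transporter (0.868). C3 was 129.7 TPM in the parotid of baboon 5 and at most 44.9 TPM in the other 19 libraries.

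No member other than TTR was called between pancreas and a gland. Against pancreas the median log2 difference of the 10 members was -0.68 in parotid, -1.25 in submandibular and -0.12 in sublingual gland, where the medians of all genes were 0.45, 0.17 and 0.63. In submandibular gland 7 of 10 members had an unadjusted limma p under 0.05, among them ALB (-1.37, SE 0.41, adjusted p = 0.0612), AMBP (-1.35, SE 0.41, adjusted p = 0.0676) and HPX (-1.21, SE 0.38, adjusted p = 0.09). In parotid and in sublingual gland TTR was the 1 such member. These counts depended on the scaling: with libraries scaled by a trimmed mean of ratios, 6 of 10 members were called in parotid against pancreas and 6 of 10 in submandibular gland against pancreas, where 8.62% and 8.98% of all genes were called. AHSG, ALB, AMBP, HPX, SERPINA1 and TTR were the 6 in submandibular gland.

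Between glands no member was called. Limma called 0 of 10 members in parotid against submandibular, 0 of 10 in parotid against sublingual and 0 of 10 in submandibular against sublingual, and 0%, 0.113% and 0.0667% of all genes. At an unadjusted p under 0.05 the counts were 0, 1 and 6 members, and 254, 1368 and 2109 of all genes. SERPINA1 had the largest difference, at -1.73 (SE 0.47, limma adjusted p = 0.152) in parotid against sublingual and -2.06 (SE 0.47, 0.0981 as adjusted p) in submandibular against sublingual gland. In the latter comparison all 10 members had a negative difference, with a median of -0.97 against -0.44 for all genes.

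These gland comparisons turned on a few libraries. Without the 5 gland libraries rich in adipocyte, lymphoid or muscle genes, and with the mucosa-rich sublingual glands of baboons 1 and 4 kept, 5 of 10 members were called lower in parotid than in sublingual gland, where 42.3% of all genes were called, and 9 of 10 were called lower in submandibular than in sublingual gland, where 51.1% were. SERPINA1 was then at -2.55 (SE 0.38) and -2.81 (SE 0.38), with limma adjusted p = 0.000415 and 0.00024. Without those 2 sublingual glands as well, which left the sublingual glands of baboons 3 and 5, the counts were 9 and 10 of 10 against 33.9% and 41.8% of all genes, and SERPINA1 was at -1.90 (SE 0.38) and -2.16 (SE 0.38). Leaving out baboon 2 alone gave 1 and 6 members called, with 2.74% and 17.8% of all genes.

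Relative to ALB, CP and SERPINA1 stood above their liver proportion in every library of the 4 tissues, and TF in all but 1 when taken as percentages of the own liver. For each member and animal, the ratio to ALB in a tissue, on the log2(TPM + 1) scale, was set against the same ratio in the animal's liver. TTR in pancreas was above ALB by 2.37, 1.14, 1.21, 0.60 and 3.01 log2 units in baboons 1 to 5. TF was above ALB in 5 of 5 animals in each tissue, by means of 0.48 ± 0.30 in pancreas, 1.46 ± 0.70 in parotid, 2.16 ± 1.5 in submandibular and 1.62 ± 1.84 in sublingual gland (SD, n = 5). The lowest of these was the sublingual of baboon 2, at 0.03, and there the sign rests on the added 1 TPM: TF was 0.523% of its own liver level and ALB 0.546%.

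CP was above ALB in 5 of 5 animals in each tissue, by 0.92 ± 0.39, 1.86 ± 0.97, 2.10 ± 0.48 and 1.32 ± 0.44 log2 units in pancreas, parotid, submandibular and sublingual gland. With 0.1 TPM added in place of 1 TPM these means were 0.49, 1.42, 1.56 and 0.96. SERPINA1 was above ALB in 5 of 5 animals as well, by 0.59 ± 0.11, 0.43 ± 0.17, 0.68 ± 0.48 and 1.52 ± 1.43. In submandibular gland RBP4 (1.07 ± 1.57) and A1BG (0.68 ± 0.62) were also above ALB in 5 of 5 animals on this scale. By percentages of the own liver A1BG was below ALB in baboons 2 (0.552% against 0.61%) and 5 (0.366% against 0.489%). On the log2(TPM + 1) scale, 4 of 9 members were above ALB in every animal in pancreas, 3 in parotid, 5 in submandibular and 3 in sublingual gland, and with no value added 4, 3, 4 and 2. With 5 animals the smallest p that exact sign-flip permutation allows (two-sided) is 0.063, and each of these members had that value (0.15 after Benjamini-Hochberg adjustment over 36 tests), so no difference from ALB could pass 0.05. Against the median of 27 other plasma proteins in place of ALB, SERPINA1 turned to -0.07 in parotid and -0.14 in submandibular gland, and A1BG to -0.14 in submandibular gland.

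**Figure D4:**
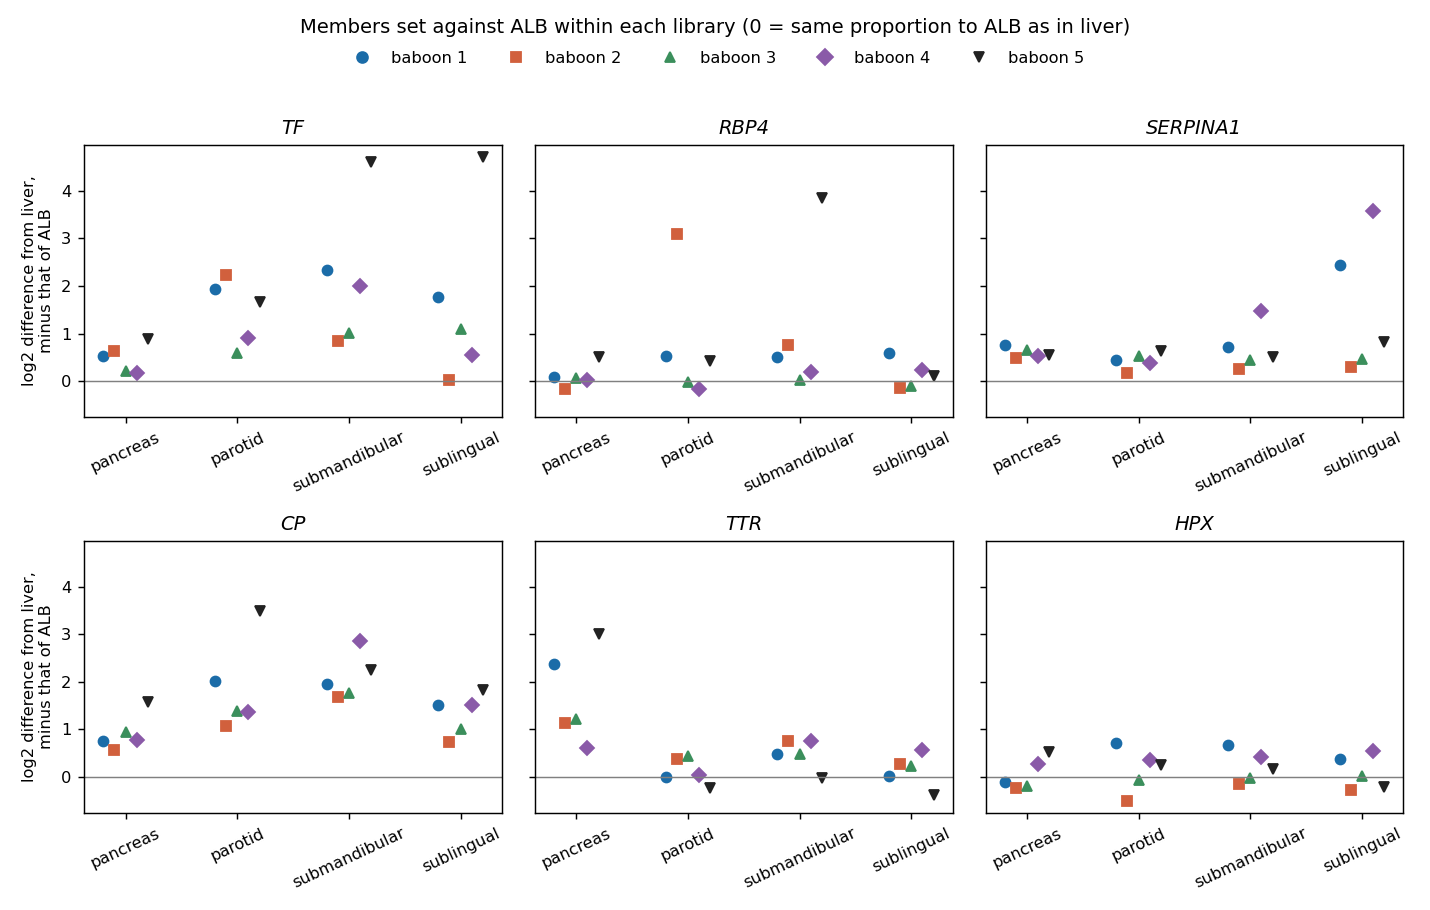
Ratios of TF, RBP4, SERPINA1, CP, TTR and HPX to ALB in each tissue minus those in the animal's liver, 1 point per baboon. Ratios are differences of log2(TPM + 1), and the line at 0 marks the liver proportion to ALB. TTR in pancreas (0.60 to 3.01) and TF lie above 0 in every animal on this scale, the sublingual TF of baboon 2 (0.03) by the added 1 TPM alone, and the sublingual TF of baboon 5 lies at 4.71.

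The liver of baboon 5, the only male, had the lowest level of every member. AHSG was 492 TPM there against 2083 to 2405 TPM in the other 4 livers, which is 22.0% of their mean. TF was at 30.7% of the mean of the others, ALB at 42.1%, A1BG at 68.5% and TTR at 75.9%. The members' median was 37.9%, that of 27 other plasma proteins 39.4% and that of 11796 genes 81.8%. This liver was the lowest of the 5 for 10 of 10 members, 24 of 27 other plasma proteins and 43.2% of the 11796 genes. ITIH4 (97.2%), APOA1 (149%) and APOA2 (178%) were the 3 others that were not lowest, and were named after their values were seen. Hepatocyte genes as a sum were highest in this liver, at 52197 TPM, of which APOA2 was 47909 TPM. With 1 male, sex and animal cannot be told apart.

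**Figure D5:**
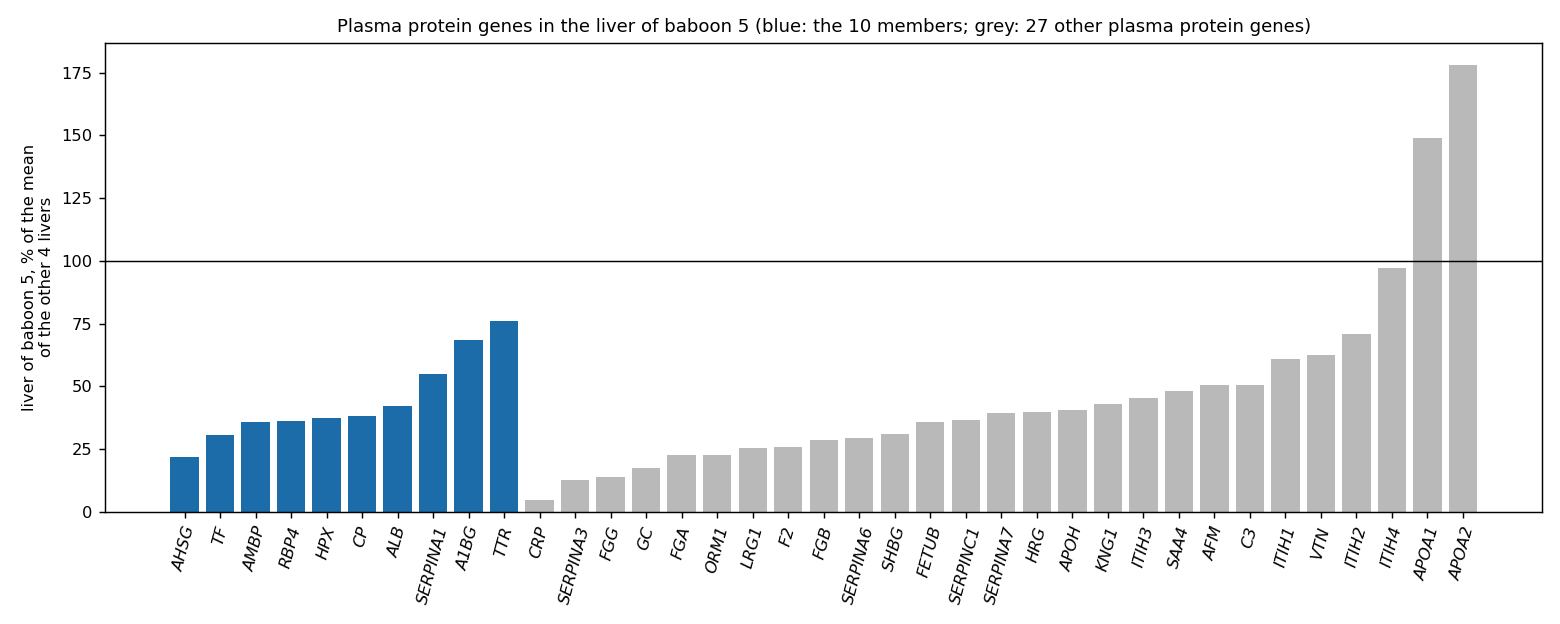
Level in the liver of baboon 5 as a percentage of the mean of the other 4 livers, for the 10 members and the 27 other plasma protein genes. The members lie between 22.0% (AHSG) and 75.9% (TTR), and APOA1 and APOA2 lie above 100%.

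Other liver-made plasma proteins behaved much as the members did in the same model. Of 30 listed genes 27 were tested, and 27 of 27 were called lower than liver in each of the 4 tissues. Their median log2 differences were -7.03 in parotid, -7.44 in submandibular, -6.40 in sublingual and -6.23 in pancreas. Of all genes, 10.9%, 13.9%, 9.52% and 14.6% were called lower in these tissues. APOA1, the main protein of high-density lipoprotein, and ORM1, an acute phase glycoprotein, had the largest differences in parotid, at -7.91 and -7.66. Against pancreas, 3 of 27 were called lower in parotid, 4 in submandibular and 1 in sublingual gland, and 0 higher. Of all genes, 3.82%, 4.08% and 9.47% were called in either direction in these comparisons. AFM, afamin, a carrier of vitamin E, was lower in all 3 glands, by limma log2 differences of -2.99, -3.14 and -2.56 (adjusted p = 4.83e-07, 1.96e-07 and 5.75e-06). SERPINA3, alpha-1 antichymotrypsin, was lower in parotid (-3.44, adjusted p = 0.00371) and in submandibular gland (-3.70, adjusted p = 0.00171), as was ITIH4 (-1.69 and -2.06). FETUB, fetuin B, was called in submandibular gland alone (-1.30).

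AFM was 10.8, 14.1, 16.8, 16.2 and 18.2 TPM in the pancreas of baboons 1 to 5 and at most 4.21 TPM in any gland, so the groups did not overlap. It was the 1 gene of this list called lower than pancreas in sublingual gland, where SERPINA3 ranged from 7.54 to 206 TPM.

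Of the receptors and handling proteins of the carriers, 7 or 8 of 14 were called lower outside liver. Of 20 listed genes 14 were tested, and 7, 7, 7 and 8 were called lower than liver in parotid, submandibular, sublingual and pancreas, with 0 called higher (10.9%, 13.9%, 9.52% and 14.6% of all genes were called lower). HAMP, the iron hormone hepcidin, had log2 differences of -7.16, -7.67, -6.66 and -6.61. ASGR1, a subunit of the receptor that takes up desialylated plasma glycoproteins, was at -7.17 in parotid and -7.47 in submandibular gland, and TFR2, the iron-sensing transferrin receptor of hepatocytes, at -6.38 in sublingual gland and -5.44 in pancreas. ASGR1 was also lower in all 3 glands than in pancreas (-3.10, -3.39 and -2.25), and TFR2 in parotid (-1.45) and submandibular gland (-1.66). ASGR1 was 24.8 to 30.2 TPM in pancreas and at most 9.19 TPM in the glands.

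Among genes that handle the cargo of RBP4, TTR, CP and HPX, 8 of 11 listed were tested. Against liver 4 were called lower in parotid, 5 in submandibular, 4 in sublingual and 6 in pancreas, where 10.9%, 13.9%, 9.52% and 14.6% of all genes were. DIO1, a deiodinase of thyroid hormone, was lower by limma log2 differences of -5.10, -5.28, -4.86 and -3.41 in parotid, submandibular, sublingual and pancreas. The genes called higher than liver were BLVRA and DIO2, both named after their values were seen. BLVRA, biliverdin reductase, was higher in parotid (2.16), submandibular (1.85) and sublingual gland (2.76). DIO2, a further deiodinase, was higher in sublingual gland (1.10). Its level was near the floor, at 0.269 to 4.41 TPM there against 0 to 0.101 TPM in liver. DIO1 was also lower than pancreas in the 3 glands (-1.68, -1.87 and -1.45). BLVRA was higher than pancreas in sublingual gland (1.73).

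Transcription factors known for liver gene expression were mostly lower outside liver. Of 10 listed factors 9 were tested, and 9 of 9 were called lower than liver in each gland. In pancreas 6 of 9 were called lower and 1 was called higher. Of all genes, 10.9%, 13.9%, 9.52% and 14.6% were called lower in parotid, submandibular, sublingual and pancreas. HNF4A, a nuclear receptor of hepatocytes, was at -4.96 in parotid, -4.84 in submandibular, -4.65 in sublingual and -3.94 in pancreas. Against pancreas 5, 4 and 4 of 9 were called lower in parotid, submandibular and sublingual gland, where 3.82%, 4.08% and 9.47% of all genes were called in either direction. In sublingual gland 1 factor, FOXA1, was called higher than in pancreas (1.39). FOXA2, a factor of liver and pancreas, was at -3.91, -3.93 and -3.59 against pancreas in the 3 glands, and FOXA3 (-2.96, -2.83 and -2.47) was lower as well.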

How the data were processed

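Gene values were TPM as the authors deposited them, in 1 table whose name states that they are kallisto abundances. The submitters' processing notes list FastQC, MultiQC, cutadapt, HISAT2, kallisto, SAMtools, featureCounts and DESeq2 without roles; the kallisto version, index, genome build and annotation are not given in the sources used here. Groups came from the labels. The members and gene lists were chosen with earlier results of these data known.

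The 14991 genes that averaged 1 TPM or more in some tissue entered a limma 3.58.1 model (R 4.3.3, eBayes with a trend) of log2(TPM + 1) on tissue and animal over 25 libraries. Benjamini-Hochberg adjustment ran within each of 10 tissue pairs. The script was tested on simulated data. Ratios to ALB were tested by exact sign-flip permutation (Python 3.11.15, pandas 2.3.3, numpy 2.4.6, scipy 1.17.1), and figures drawn with matplotlib 3.10.9. Same-numbered libraries come from the same animal; deviations from tissue means correlated at 0.161 over 50 pairs of libraries of 1 animal and at -0.035 over 200 pairs of different animals.

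All members were named, up to 2 called genes per list with the largest change against liver and up to 4 elsewhere, and the 3 genes most like each member over 20 libraries. Alternatives were 2 scalings, 2 filters, a smaller pseudocount, fits without the animal term or with only the tissues compared, each animal left out, and, chosen after seeing the data, 5 or 7 libraries left out, no pseudocount and another reference than ALB. Some of the genes this rule names are not reported here. No sequences or coordinates are printed.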

Additional observations from a re-analysis of the deposited data

Results flagged for a closer look

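In 14 of 50 groups of 5 libraries, the highest or lowest library lay further from the rest than Dixon's 95% limit allows (a gap of over 0.71 of the group's range). Chance gives about 1 in 20, or 2.5 groups, if values follow a normal distribution. The limit was applied to TPM without a log, which need not do so, and the groups share libraries. The 14 groups thus do not show an excess over chance. The sublingual gland of baboon 3 was the highest of its group for 6 members: ALB at 573 TPM (next 208 TPM), TTR at 167 TPM, HPX at 39.4 TPM, AMBP at 89.4 TPM, RBP4 at 234 TPM and A1BG at 12.1 TPM. The parotid of the same animal was highest for HPX, at 16.1 TPM. TF, the iron carrier, was apart in 4 tissues: lowest in the pancreas of baboon 5, at 9.92 TPM, and highest in the parotid of baboon 2, at 63.9 TPM, in the submandibular gland of baboon 5, at 91.9 TPM, and in the sublingual gland of baboon 5, at 294 TPM. The parotid of baboon 2 was highest for RBP4, at 695 TPM, and that of baboon 5 for CP, at 10.7 TPM. AHSG in the liver of baboon 5 was lowest, at 492 TPM (next 2083 TPM).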

How the results depend on the processing

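The 10 of 10 members called lower than liver stayed at 10 of 10 in all 4 tissues under every setting run, each replicate left out included. Of the values for single genes, 3 changed sign, 5 lost their call and 759 did neither. Among these are ratios to ALB, which had no call and were judged by sign alone. Of the counts of members, 32 moved and 152 stayed equal or near. Without the replicate block the members called were as with it, 10, 1 and 0 against liver, pancreas and between glands, and members above ALB in every library, set against the mean of the 5 livers in place of the own liver, were 7 in parotid and 8 in submandibular gland instead of 3 and 5.

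Against pancreas, where 1 member was called in each gland, trimmed mean scaling gave 6 in parotid and 6 in submandibular gland, and median-of-ratios scaling 6 and 6. Of all called genes, those higher than liver were 16.3% in pancreas, 20.6% in parotid and 15.8% in submandibular gland, and 40.8%, 37.7% and 39.6% under trimmed mean scaling (41.6%, 40.1% and 42.1% under median-of-ratios). Those higher in sublingual gland than in pancreas were 73.6%, and 39.6% and 41.6% under the 2 scalings. No filter on low values gave 4 in submandibular gland, and fitting only the 2 tissues gave 0 in sublingual gland. Leaving out 1 animal gave 0 to 1 members in parotid, 1 to 4 in submandibular and 0 to 1 in sublingual gland against pancreas, 0 to 1 in parotid against sublingual and 0 to 6 in submandibular against sublingual gland. Without the 5 libraries rich in adipocyte, lymphoid or muscle genes the counts were 3, 7 and 3 against pancreas and 5 and 9 against sublingual gland. Without the 2 mucosa-rich sublingual glands too they were 6, 7 and 2, and 9 and 10. Of all genes, 1188, 1504 and 5117 of 14328 were called against pancreas in parotid, submandibular and sublingual gland without the 5 libraries. Without the 7 libraries they were 1583, 1903 and 4342 of 14081. Under both settings, members above ALB in every library kept were 5 in parotid and 8 in submandibular gland. Fewer animals had to meet this criterion in these glands, so the counts could only stay or rise. With the median of other plasma proteins as reference, members above it were 2 in pancreas and 2 in submandibular gland. SERPINA1 was then at -0.07 in parotid and -0.14 in submandibular, and A1BG at -0.14 in submandibular gland. The causes were not tested. TPM keeps no depth, so counting error is unknown, and values near 1 TPM, as of CP, are the least certain.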
